A study of Sus scrofa with 18 samples.

Results

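Many miRNA reads from pig backfat ended in an A that the hairpin precursor does not encode. A form was counted here as 3′ adenylated when it was listed with 1 mismatch, ended in A and, without that A, equalled an untailed read of the same miRNA, or the leading part of one, from the same start position. Untailed reads are those that match the precursor from end to end, at the annotated ends or shorter or longer. The rule found 728 adenylated forms, each sequence counted once per mature miRNA, of 17623 forms in all and of 14473 forms with 1 mismatch. They came from 177 of the 240 miRNAs counted. The other 63 miRNAs had none.

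The study sequenced small RNA from the backfat, the fat layer under the skin, of 18 Italian Large White pigs taken at slaughter, 1 library per animal. The 9 pigs of the high backfat class were 4 females and 5 castrated males, 241 ± 4.47 days old (SD), and the 9 of the low class were 5 females and 4 castrated males, 243 ± 6.04 days old. All pigs shared housing and feed and weighed 150 to 160 kg, and the labels name no treatment. The classes differ in how much fat the animals had laid down, so the design compares animals and not a manipulated gene. Library totals ran from 9601510 to 34588252 reads, with medians of 19848593 for the high class and 21095206 for the low class. They count the miRNA reads of the deposited table, each sequence once, and not all reads sequenced. The shallowest library, low replicate 7, stood apart in several rates per stem and is named where it did.

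A miRNA is cut from a hairpin precursor by Drosha and Dicer, and its 3′ end can then be trimmed or extended by single bases. Terminal nucleotidyltransferases add them: TENT2 (GLD2) and PAPD5 add A, TUT4 and TUT7 mostly add U, which is read as T in DNA letters. An added A is known to stabilise miR-122 in liver and to lead to trimming of miR-21, so its effect depends on the miRNA. The bases 2 to 8 from the 5′ end, the seed, choose the targets and are untouched by a 3′ tail.

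The forms below hold most of the adenylated reads or carry the differences described later. They are written 5′ to 3′ in DNA letters as the reads were deposited, and the capital marks the added A. Where a miRNA has several lines, the forms differ in where the templated stem before the A begins or ends. In the deposited table the miR-10b form with the later start spans positions 41 to 63 of the extended mir-10b precursor, and the miR-143-3p form positions 79 to 100 of mir-143.
miR-10b, annotated start, stem 1 base past the annotated end: taccctgtagaaccgaatttgtgA
miR-10b, start 1 base later, same stem end: accctgtagaaccgaatttgtgA
miR-10b, annotated start and end: taccctgtagaaccgaatttgtA
miR-10a-5p, start 1 base later, stem 1 base past the annotated end: accctgtagatccgaatttgtgA
miR-143-3p, annotated start and end: tgagatgaagcactgtagctcA
miR-28-3p, annotated start and end: cactagattgtgagctcctggaA
miR-28-5p, annotated start and end: aaggagctcacagtctattgagA
miR-126-5p, annotated start and end: cattattacttttggtacgcgA
miR-92a, annotated start and end: tattgcacttgtcccggcctgtA
miR-148a-3p, stem 1 base short: tcagtgcactacagaactttgA
miR-148a-3p, annotated start and end: tcagtgcactacagaactttgtA
miR-152, annotated start and end: tcagtgcatgacagaacttggA
miR-21, stem 1 base past the annotated end: tagcttatcagactgatgttgacA
let-7a, annotated start and end: tgaggtagtaggttgtatagttA
let-7g, annotated start and end: tgaggtagtagtttgtacagttA
let-7i, stem 2 bases past the annotated end: tgaggtagtagtttgtgctgtA
miR-103 and miR-107, stem 2 bases short: agcagcattgtacagggctatA
miR-486, annotated start and end: tcctgtactgagctgccccgagA
miR-708-5p, annotated start and end: aaggagcttacaatctagctgggA
miR-1249, annotated start and end: acgcccttcccccccttcttcaA
miR-218-5p, stem 1 base past the annotated end: ttgtgcttgatctaaccatgtgA
miR-130b, annotated start and end: cagtgcaatgatgaaagggcatA

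The 728 forms held 13128412 reads, against 319309274 untailed reads. They took up 19.4% of all reads with 1 mismatch but only 5.03% of the forms with 1 mismatch. Of the 728, 337 forms were counted in all 18 libraries and held 99.4% of the adenylated reads, and 202 forms were counted in fewer than 9 libraries. In 669 forms the stem itself was listed as an untailed read, and these held 99.3% of the adenylated reads. In the other 59 only a longer untailed read covered the stem. No adenylated form was also listed as an untailed read of another precursor, and 25 sequences were listed under more than 1 miRNA. The 728 forms are 701 distinct sequences, and reads of a shared sequence enter these totals under each of its miRNAs. Stems were 16 to 26 bases long.

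A few miRNAs supplied most of the adenylated reads. miR-10b alone held 32.9% of them, the 3 leading miRNAs 53.5% and the 12 leading miRNAs 75.99%. After miR-10b came miR-143-3p with 12.2%, miR-10a-5p with 8.37%, miR-28-3p with 4.13% and miR-126-5p with 3.89%. miR-143-3p is a fat and smooth muscle miRNA that favours fat cell formation, and miR-126 is the miRNA of endothelial cells. These reads did not simply follow abundance: miR-28-3p made up 0.352% of untailed reads and 4.13% of adenylated reads, and miR-148a-3p made up 6.49% of untailed reads and 1.96% of adenylated reads.

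The stem before the added A ended at the annotated 3′ end in 43.8% of adenylated reads and 1 base past it in 35.8%. It ended 1 base short of it in 12.9% and 2 bases short in 5.22%. At the position of the added A the precursor encodes T for 54.5% of the adenylated reads, G for 28.4% and C for 16.8%. Where the precursor itself encodes A at the next position, an added A makes a templated read and cannot be seen. Between 91.0% and 93.9% of the untailed reads of a library had a next precursor base that is known and not A. These are called below the reads that could show an added A. Reads whose next base is not known were left out of them, while all adenylated reads were kept. Rates per such read can therefore come out too high.

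The rate used from here on is the number of adenylated reads per 100 untailed reads of the same miRNA or library. Per library it ran from 3.57% to 4.65%, with a median of 4.14%. The same rule with another last base gave a median of 0.125% for C, 0.453% for G and 8.69% for T. A was above C and G, and below T, in 18 of 18 libraries. Changes to A at inner positions of the reads, the background of base changes, came to a median of 0.0226% per position. The end rate was 76.2 to 239 times the inner rate of the same library. Low counts may have been removed before deposit. Rare forms with an inner change would then be undercounted, and these ratios may be too high. Tails of AA added 0.325% and tails of AT 0.244%, as medians over the libraries.

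Among the 90 miRNAs with an adenylated form and at least 1000 untailed reads in every library, the pooled rate had a median of 3.74% and quartiles of 2.01% and 9.39%. The rate was above 10% in 21 of them and below 1% in 15. The 24 miRNAs named as 5p arms had a median of 4.38% and the 20 named as 3p arms 3.60%. A exceeded T as the added base in 56 of the 90 miRNAs and exceeded both C and G in 86. miR-144 (59116 untailed reads) and miR-19b (64238) reached the same depth with no adenylated form.

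With all untailed reads as the denominator, both arms of the miR-28 hairpin were among the 3 highest rates. miR-28-3p had a rate of 48.5% ± 3.89 (SD, n = 18), from 42.2% to 55.1%, and 98.1% of its adenylated reads were the 1 form shown above. miR-28-5p had 39.4% ± 4.47, from 32.4% to 47.6%. Per read of its own stem, the leading miR-28-5p form reached 81.2%. Near them stood miR-152 at 46.4% ± 6.91, whose leading form had a rate of 77.1% per read of its own stem. The ranges of these 3 overlap. The next miRNA in order was miR-486, a red blood cell miRNA, at 24.8% ± 4.005. The order changes when only reads that could show an A are counted: miR-199b-3p then comes first at 64.6% (4.73% of all its untailed reads), followed by miR-28-3p at 54.1%, miR-28-5p at 53.7%, miR-193a-3p at 50.9% (4.37% of all), miR-152 at 46.8% and miR-7142-3p at 44.0% (1.55% of all). In miR-199b-3p, miR-193a-3p and miR-7142-3p such reads were 7.32%, 8.58% and 3.53% of the untailed reads. miR-199a-3p, which shares its sequence with miR-199b-3p, had only 18.6% per such read, with 33.4% of its untailed reads counted. The places of miRNAs with few such reads in this order are therefore uncertain.

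Below these, 8 miRNAs lay close together, and neighbours in this order did not differ beyond their spread. miR-150, a lymphocyte miRNA, was at 20.7% ± 4.03, miR-100 at 17.5% ± 2.59, miR-125b at 17.3% ± 4.18 and miR-146a-5p, an inhibitor of inflammatory signalling, at 16.8% ± 2.54. miR-126-3p stood at 15.8% ± 2.52, miR-532-5p at 15.8% ± 2.35, miR-378 at 15.7% ± 1.66 and miR-92a at 15.6% ± 2.06. miR-378 lies within the gene of the fat regulator PGC-1β.

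At the other end were 6 miRNAs with pooled rates below 0.5%. miR-4334-3p had a pooled rate of 0.0346% from 38 reads, miR-451 of 0.110%, miR-148a-5p of 0.289%, miR-374a-3p of 0.342%, miR-191 of 0.398% and miR-103 of 0.422%. miR-451, which matures in red blood cells through Argonaute 2 without Dicer, came from 3 adenylated forms with 954 reads in all. miR-486, from the same cells, was adenylated at a far higher rate than miR-451. Some of these miRNAs had few reads that could show an added A: 52.9% of the untailed reads of miR-451, 9.66% of miR-103 and 8.58% of miR-374a-3p, against 100.0% of miR-191. Per such read the rates were 0.207% for miR-451, 4.37% for miR-103, 3.98% for miR-374a-3p and 0.398% for miR-191. For miR-374a-3p the precursor base behind its leading stem (142626 reads) is not known, so these reads are missing from that denominator. The annotated miR-4334-3p stem followed by an A is also a templated miR-339 read, tccctgtcctccaggagctca, so an A behind it could not be told apart from miR-339.

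Within the miR-10 family the rates differed widely between stems. In miR-10b the stem at the annotated end (87951100 untailed reads) had a rate of 0.549%, from 0.380% to 0.627% over the libraries. The stem that runs 1 base further and so ends in G had 18.2%, from 14.8% to 32.7%, and the stem that also begins 1 base later had 42.4%, from 37.3% to 73.6%. These last 2 forms made up 36.6% and 39.3% of all adenylated miR-10b reads. In miR-10a-5p, which differs from miR-10b by an inner base, the same 3 stems had rates of 0.774%, 26.7% and 66.4%. The form with the later start was above the form with the annotated start in 18 of 18 libraries in both miRNAs, by 2.22 to 2.55 times in miR-10b and by 2.28 to 2.80 times in miR-10a-5p. Its bases 2 to 8 read ccctgta where the annotated start gives accctgt, so the later start also shifts the seed. The highest of these rates came from 1 library in both miRNAs, low replicate 7.

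Stems that end in T had the lowest median rate of an added A, with wide exceptions. Over the stems with at least 1000 untailed reads whose next template base is known and not A, the median rate was 9.42% for the 176 stems ending in G, 6.17% for the 99 ending in A, 3.31% for the 110 ending in C and 1.12% for the 233 ending in T. Pooled over reads, T-ending stems ran from 0.714% to 1.505% over the 18 libraries and G-ending stems from 9.28% to 14.9%, so these pooled values did not overlap. A-ending stems, pooled in the same way, ran from 10.1% to 17.0%. Single stems did overlap: those ending in GT ran from 0.00% to 68.6% and those ending in TG from 0.00% to 339%. Within the 62 miRNAs that had both G-ending and T-ending stems, the G-ending stems had the higher pooled rate in 49 and the T-ending stems in 11. Stems of 1 miRNA share most of their sequence, so these counts are a description.

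miR-148a-3p, a promoter of fat cell formation, repeats this pattern. Its stem at the annotated end, which ends in T, held 20091355 untailed reads and had a rate of 0.492%. The stem 1 base shorter, which ends in G, held 391260 reads and had a rate of 39.5%, from 30.4% to 64.4%. Its adenylated form is as long as the annotated miRNA, with A in place of the last T. A changed last base of the annotated read and a tail on the shorter stem therefore cannot be told apart. miR-152, which shares the bases 2 to 8 of miR-148a-3p, ends in G at its annotated end. In miR-30a-5p, another miRNA that favours fat cell formation, the G-ending stem at the annotated end had a rate of 57.3%, from 42.2% to 80.6%, while the miRNA as a whole had 2.52%. That stem made up 2.57% ± 0.262 (SD, n = 9) of the untailed miR-30a-5p reads in the high class against 2.74% ± 0.230 in the low.

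The let-7 family restrains growth, and its 5′ arms share the seed gaggtag. Apart from let-7i their mean rates ran from 3.08% to 4.88%. let-7a stood at 3.08% ± 0.282 (SD, n = 18), let-7d-5p at 3.12% ± 0.305, miR-98 at 3.35% ± 0.538, let-7g at 3.80% ± 0.413, let-7f at 3.92% ± 0.333, let-7c at 4.12% ± 0.381 and let-7e at 4.88% ± 0.495. The highest let-7a library (3.59%) and the highest let-7d-5p library (3.79%) lay below the lowest of let-7e (4.07%). let-7i had 0.514% ± 0.0488. Only 17.4% of the untailed let-7i reads could show an added A, and per such read its pooled rate was 2.97%, against 3.09% for let-7a. miR-103 and miR-107 differ in the same way: their rates were 0.422% and 3.59%, and per read that could show an A they were 4.37% and 4.78%. Their leading form is 1 sequence listed under both miRNAs, so its reads cannot be assigned to one of them.

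miR-122 and miR-21 are well-known examples of adenylated miRNAs, and many others are also substrates of TENT2. miR-122, the liver miRNA, was counted at 0 to 30 CPM (reads scaled to the library total, as counts per 1000000) and its only adenylated form, 100 reads in all, in 3 of 18 libraries. miR-21 had a rate of 2.66% ± 0.256 (SD, n = 18). Its leading form sits on the stem 1 base past the annotated end, with 10.4% per read of that stem, from 8.72% to 13.0%.

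The main comparison of the study is between the backfat classes. The overall rate of adenylation in the high class was 4.26% ± 0.168 (SD, n = 9), with a lowest value of 4.09%, a median of 4.20% and a highest of 4.65%. In the low class it was 3.95% ± 0.214, with 3.57%, 3.96% and 4.28%. The 3 highest libraries of the low class lay above the lowest of the high class, so the classes overlap. The mean difference of 0.306 percentage points had p = 0.00271 in an exact two-sided permutation test over all 48620 splits, and 0.00543 after adjustment over the class and sex comparisons. For the other added bases the same exact permutation test gave p = 0.249 for C, 0.807 for G and 0.112 for T, where the high class had 8.43% ± 0.803 and the low class 8.99% ± 0.596. The codes in the library names form 4 stretches of consecutive numbers, called runs here. The labels do not say whether these runs are batches. Within every one of the 4 runs of library codes the high class was above the low class, by 0.123 to 0.350 points. Run AC485-AC488 held only 1 high library against 3 low. The high class was also above the low in females by 0.227 points and in castrated males by 0.420 points. With labels permuted only within those runs, the exact permutation p was 0.0116. Without low replicate 7 the difference was 0.290 points (exact permutation p = 0.00543).

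The class difference of the overall rate changed sign when forms were counted per read of their own stem. Shares of the stems among untailed reads were compared as a description, with no test. Over the 40 most read adenylated forms, the stem share lay above the low median in 9 of 9 high libraries for 6 forms, in 0 of 9 for 3 forms and in 4 to 6 of 9 for 13 forms. Stems of miR-10b running 1 base past the annotated end, at the annotated start, made up 8.28% ± 0.819 (SD, n = 9) of untailed miR-10b reads in the high class against 6.69% ± 1.08 in the low, with 9 of 9 high libraries above the low median. For the same stem of miR-10a-5p the shares were 13.8% ± 0.861 and 11.5% ± 1.62, again with 9 of 9. In miR-92a the share of the stem at the annotated end went the other way, 75.3% ± 1.51 and 76.2% ± 1.17, with 0 of 9 high libraries above the low median. The rate per read of the miR-10b stem had a median of 18.0% in the high class, from 17.1% to 20.1%, against 17.3% in the low, from 14.8% to 32.7%. When each form was counted per read of its own stem and the stems were given the same weights in all libraries, the overall rate was 4.08% ± 0.171 in the high class against 4.19% ± 0.485 in the low, a difference of -0.109 points (exact permutation p = 0.572). Low replicate 7 had the highest such value, 5.20%, and without it the difference was 0.0176 points (exact permutation p = 0.888). With a fixed mix of miRNAs in place of stems, the difference was 0.244 points (exact permutation p = 0.00584). The median rate over the miRNAs tested differed by 0.376 points (exact permutation p = 0.0687).

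Per miRNA, edgeR's quasi-likelihood test with the untailed reads as the offset called no miRNA between the classes at a Benjamini-Hochberg adjusted p under 0.05, 0.0% of the 150 tested. At an unadjusted p under 0.05 there were 27, of which 24 had the higher rate in the high class (16.0% of those tested) and 3 the lower. limma on log2 rates called 4. The fitted log2 difference was above 0 for 108 miRNAs and below 0 for 42, with a median of 0.11. Centring each library on its overall rate takes the class difference of that rate out of every miRNA, and the median was then 0.00. After centring, 20 miRNAs had an unadjusted p under 0.05 in edgeR, 6 of them higher in the high class. With the code run in the model and no centring the median was 0.06. Dropping run AC485-AC488, which holds 1 high and 3 low libraries, left a median of 0.04. In that edgeR fit 15 of 155 miRNAs had an unadjusted p under 0.05, 12 of them higher in the high class. Run U134-U139 was uneven too, with 4 high and 2 low libraries. No miRNA had classes that did not overlap.

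The 5 miRNAs with the lowest p all had the higher rate in the high class, with 9 of 9 high libraries above the low median. miR-708-5p had a lowest, median and highest rate of 14.4%, 16.5% and 20.3% in the high class against 8.67%, 13.4% and 15.7% in the low. Its log2 difference was 0.40 ± 0.10 (SE), adjusted p = 0.05005 in edgeR. miR-1249 had 2.79%, 3.82% and 4.84% against 1.70%, 2.49% and 3.68% (log2 difference 0.52 ± 0.14, adjusted p = 0.05005). miR-218-5p had 4.84%, 5.38% and 6.35% against 2.68%, 3.51% and 5.10% (0.55 ± 0.15, adjusted p = 0.05005). Its leading form, with 947 of its 1299 adenylated reads, is also listed under miR-218b, and the stem of that form is listed as untailed under miR-218b alone (13742 reads). The miR-218-5p rate therefore sets shared reads against a denominator without their stem. For let-7g the rates were 3.68%, 4.17% and 4.50% against 2.98%, 3.66% and 3.78% (0.23 ± 0.06, adjusted p = 0.0501). For miR-10b they were 3.70%, 3.91% and 4.18% against 3.31%, 3.65% and 4.13% (0.14 ± 0.04, adjusted p = 0.0686). None passed the threshold, and the first 4 missed it by less than 0.001. Under other settings miR-708-5p was called in 13 of 31 fits, with adjusted p from 0.0168 to 0.0961. miR-1249 was called in 7 of 30 (up to 0.167), miR-218-5p in 4 of 29 (up to 0.134), let-7g in 5 of 31 (up to 0.344) and miR-10b in 2 of 31 (up to 0.774). The log2 difference of let-7g ran from 0.12 to 0.26 over these fits, and that of miR-10b from 0.02 to 0.16. miR-1249 and miR-218-5p rest on 1761 and 1299 adenylated reads over 18 libraries, and miR-708-5p on 8306.

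Per read of its own stem, the leading form of miR-708-5p had a median rate of 26.2% in the high class against 18.5% in the low, and 9 of 9 high libraries were above the low median. The same count held for the leading forms of let-7g, with medians of 4.86% and 4.23%, and of miR-1249, with 4.31% and 2.94%. These forms hold 78.8% (miR-708-5p), 89.7% (let-7g) and 79.7% (miR-1249) of the adenylated reads of miRNAs picked by their low p. The counts therefore describe where the difference lies and are no further support for it. The miR-10b forms differed in direction. Its most read form had medians of 40.7% (high) and 42.3% (low), with 3 of 9 high libraries above the low median. The form at the annotated start and end had 0.553% and 0.541%, with 7 of 9, and the form on the stem 1 base short had 9.41% and 11.8%, with 1 of 9.

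Among the miRNAs with most adenylated reads, values in the 2 classes lay close together. miR-143-3p had a lowest, median and highest rate of 3.17%, 3.42% and 3.69% in the high class against 3.07%, 3.37% and 3.60% in the low (log2 difference 0.04 ± 0.04). miR-28-3p had 42.4%, 49.3% and 55.1% against 42.2%, 48.8% and 53.1% (0.00 ± 0.06), and the sign of its difference changed under several alternatives. miR-126-3p, with medians of 15.6% and 17.8%, had the negative log2 difference -0.10 ± 0.10, and its adjusted p in edgeR was 0.669. miR-10a-5p (medians 10.25% and 9.31%), miR-92a (16.7% and 15.5%) and miR-378 (16.6% and 14.4%) each had 8 of 9 high libraries above the low median, with adjusted p of 0.254, 0.118 and 0.254 in edgeR. For miR-28-5p this count was 9 of 9, with medians of 41.7% and 35.9% and an adjusted p of 0.118.

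The overall difference can be split by miRNA. Of the 0.306 points, miR-10b supplied 0.0886, miR-143-3p 0.0427, miR-92a 0.0366, miR-28-3p 0.0320 and miR-10a-5p 0.0216. Such a share also moves with the level of the miRNA: for miR-28-3p the rate was alike in the classes. miR-199a-3p and miR-199b-3p, which share their sequence, and miR-148a-3p pulled the other way, by -0.0122, -0.0122 and -0.0105 points.

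By function the counts were as follows. Of 9 arms of the let-7 family tested, 6 had the higher fitted rate in the high class and 3 the lower, with a median log2 difference of 0.07. Of 17 arms of miRNAs known to promote fat cell formation, 9 were higher and 8 lower (median 0.02), and of 10 arms known to restrain it, 7 were higher and 3 lower (median 0.10). None was called, and over all 150 miRNAs tested the counts were 108 and 42 with a median of 0.11. The markers of other cells in the tissue gave few values. miR-451 and miR-486 of red blood cells were both lower with a median of -0.03, and their signs changed under several alternatives. Of 3 white blood cell arms, 1 was higher and 2 lower (median 0.00), and the 2 arms of miR-126 were both lower (-0.07). The 1 epithelial arm tested, miR-205, was higher (0.36). Skeletal muscle markers had no arm that passed the read minimum.

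Levels of those markers were compared as CPM. The red blood cell list summed to a median of 3528 in the high class, from 2872 to 4604, against 3046 in the low, from 2051 to 7972. The white blood cell list had medians of 1683 and 1578 and the endothelial list of 27944 and 25048, with overlapping ranges. Muscle markers were low, with 64.2 (41.3 to 136.5) in the high class against 111 (70.3 to 209) in the low. The epithelial miR-205 had a median of 5.89 (1.41 to 15.2) in the high class against 9.49 (1.99 to 43.4) in the low. The part of the cell mixture in the adenylation rates was not tested, and in bulk tissue fewer cells of a type and less RNA per cell cannot be told apart.

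As single entries of the whole table, 544 entries of adenylated forms passed the read minimum. This fit compares levels and not rates. A sequence listed under several precursors or miRNAs makes several entries here, so the counts of entries include repeats. edgeR called none of them between the classes, with 0.0% called of all 7330 entries tested. At an unadjusted p under 0.05 there were 89 (16.4%), of which 57 were higher in the high class, against 8.77% of all entries. The DESeq2 Wald test called 48 of the 544 (8.82%), 29 of them higher, against 3.52% of all entries. The median log2 difference was 0.11 for the adenylated entries and -0.01 for all entries. The lowest adjusted p in edgeR was 0.0539, for the form of miR-199a-3p and miR-199b-3p that starts 1 base late, cagtagtctgcacattggttaA, whose level was lower in the high class (log2 difference -0.75 ± 0.15). In miR-1249 the leading form had a log2 difference in level of 1.09 ± 0.28 (adjusted p = 0.130).

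Castrated males and females differed in the rate of 1 miRNA, 0.667% of the 150 tested. miR-130b, which restrains fat cell formation by acting on PPARγ, had a lowest, median and highest rate of 18.5%, 22.6% and 27.6% in castrated males and of 23.1%, 32.9% and 41.0% in females. The sexes overlap, and 9 of 9 castrated males lay below the female median. The log2 difference was -0.54 ± 0.10 (SE), adjusted p = 0.00247 in edgeR, and it stayed past the threshold in all 31 alternatives run, from -0.59 to -0.49. The call rests on 2 forms with 7038 reads, the leading one at 53.4% per read of its own stem. The added T of the same miRNA had a rate of 49.0% ± 5.63 (SD, n = 9) in castrated males and 54.1% ± 7.002 in females. Between the classes the miR-130b rate had medians of 27.6% and 24.2% (log2 difference 0.12 ± 0.10). At an unadjusted p under 0.05 there were 3 miRNAs in this comparison, miR-130b among them.

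The overall rate differed between the sexes by -0.118 points, castrated males minus females (exact permutation p = 0.326). Without the 4 libraries coded AC485 to AC488 this difference was 0.00682 points. A test of whether the class difference depended on sex called no miRNA (0.0% of 150) in edgeR, with 7 at an unadjusted p under 0.05, and limma called none, with 9. The lowest p there belonged to miR-7135-3p, which had 302 adenylated and 171 untailed reads in all, and miR-365-5p, which had 169 adenylated reads, followed by miR-107, miR-423-3p and miR-361-5p. All 5 had an adjusted p of 0.770.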

How the data were processed

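The raw table deposited by the authors gives counts of reads, as whole numbers, for each sequence of each mature miRNA within an extended precursor in 18 libraries, made from Trizol RNA with the TruSeq Small RNA kit and read on an Illumina GAII, per the labels' protocols. Per the submitters' processing notes, Bowtie 0.12.7, HTSeq, DESeq2 1.4.5 and the pig build Sscrofa10.2 were used. The sources used here do not give the mapping settings. Low counts may have been removed before deposit, since no value of 1 occurs. The values of 2 columns that match no sample were not used. Library totals ran from 9601510 to 34588252 reads, so rates of miRNAs with few reads are imprecise.

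A sequence listed under several precursors of a mature miRNA entered with its highest count only. Rates per miRNA were tested with edgeR 4.0.16 (quasi-likelihood, log of untailed reads + 0.5 as the offset, class and sex in the model) for miRNAs with at least 10 adenylated reads in at least 9 libraries, and single entries with edgeR over the whole table (minimum count 10, TMM), both adjusted by Benjamini-Hochberg and called under 0.05. Alternatives used limma 3.58.1 and DESeq2 1.42.0 in R 4.3.3. Overall rates were compared with exact permutation tests in scipy 1.17.1. The fits were tested on simulated data. P-values measure the spread between these animals.

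miRNAs were named by a rule: all past the threshold or the 5 lowest p of each test, the 12 with most adenylated reads, the 12 highest and 6 lowest rates among those with at least 1000 untailed reads in every library, miR-21, miR-122, miR-143-3p, miR-148a-3p, miR-103, miR-126 and the let-7 family. miR-144, miR-19b, miR-193a-3p, miR-199a-3p, miR-199b-3p, miR-218b, miR-339 and miR-7142-3p were named after their values were seen. The members, lists and tests were chosen with earlier results of these data known. Replicate numbers only name libraries. Positions on chromosomes were not used here.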

Additional observations from a re-analysis of the deposited data

Results flagged for a closer look

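In groups of 9 libraries, the gap of the highest or lowest library to its nearest neighbour was set against the group's whole range (Dixon's test at 95%). Of 98 groups looked at, 7 passed, and chance alone passes about 1 in 20. The overall adenylation rate of high replicate 6 was 4.65%, against 4.09% to 4.35% in the other 8 high libraries. The rate of an added T was 10.16% in high replicate 2, against 7.51% to 8.80% in the others. miR-486 was adenylated at 36.7% in low replicate 7, against 19.6% to 27.3% in the other low libraries. miR-532-5p stood at 21.4% in high replicate 1, against 15.1% to 17.8%. let-7d-5p was at 2.43% in low replicate 3, against 2.83% to 3.20%. miR-155-5p reached 9.99% in low replicate 5, against 4.88% to 6.90%. miR-365-5p, with 169 adenylated reads in all, had 9.38% in low replicate 2, against 0.00% to 3.48%.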

How the results depend on the processing

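The class difference of the overall rate (0.306 points) kept its sign and its side of the threshold under 29 of 32 alternatives, from 0.258 to 0.347 points with any 1 library left out. The exceptions were the median over miRNAs tested (0.376 points, exact permutation p = 0.0687), the fixed mix of stems (-0.109 points) and that mix without low replicate 7 (0.0176 points). The stem mix was chosen after seeing the data. Several of the 29 were not planned either. These were the fixed mix of miRNAs, only reads that could show an A, only forms counted in all libraries and repeated listings summed. The others were miR-10b left out, miR-10b alone, libraries AC485 to AC488 left out and labels permuted within runs. The value without sequences also listed as untailed equals the main one, since there are none. miRNAs called by rate between the classes, 0 in the main result, numbered 2 with only direct stems as the denominator, 4 with limma, 1 with a minimum of 100 reads, 1 with the run of library codes and 3 with age in the model, and 6 over forms counted in all libraries, the latter chosen after seeing the data. Leaving out 1 library gave 0 to 6 calls, with 6 without low replicate 8. All of these calls were higher in the high class, and miR-708-5p was called in 13 of 31 alternatives. Of 45 named miRNAs tested, 12 changed the sign of the class difference when libraries were centred, miR-143-3p and miR-28-3p among them. Centring takes the class difference of the library rate out of every miRNA, so small differences can change sign for that reason alone. Dropping run AC485-AC488 changed the sign for 8 of the 45, again with miR-28-3p among them. Called entries of adenylated forms numbered 48 in the DESeq2 Wald test and 0 to 3 with 1 library left out, with 3 without high replicate 7 and 3 without low replicate 2. The sex difference of the overall rate (-0.118 points) ran from -0.163 to -0.0574 points with 1 library left out, and was 0.164 points with the fixed mix of stems, 0.0416 points with that mix without low replicate 7 and 0.00682 points without the 4 libraries coded AC485 to AC488. No paired analysis was possible because the replicate numbers follow accession order and pair no animals. Depth limits the rates of miRNAs with few adenylated reads.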

Other observations

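The leading adenylated forms of other miRNAs spread as widely as those named in the report. Apart from miR-99b, those given here were chosen after their values were seen. miR-101, tacagtactgtgataactgaaA, had a median rate of 53.1% per read of its own stem, from 47.8% to 56.9% over the 18 libraries. In miR-30d the form tgtaaacatccccgactggaaA had 32.2%, from 26.9% to 39.2%. miR-99b, cacccgtagaaccgaccttgcgA, had 18.3%, from 14.2% to 23.5%, and miR-181a, aacattcaacgctgtcggtgagA, had 6.43%, from 4.92% to 7.80%. miR-27b-3p had 2 forms that differ in stem end: ttcacagtggctaagttctgcaA with 19.6%, from 14.0% to 21.2%, and ttcacagtggctaagttctgA with 0.781%, from 0.483% to 1.11%.

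By the last 2 bases of the stem, the 11 stems ending in AA had a median rate of 30.9%, the 34 ending in GG 22.6% and the 42 ending in AG 11.7%. The 63 stems ending in CT had 0.0513%. Single stems ran from 0.00% to above 100% within several of these groups. Stems ending in T had a pooled rate of 1.27% ± 0.132 (SD, n = 9) in the high class against 1.10% ± 0.173 in the low. For stems ending in G these rates were 10.99% ± 0.533 and 11.3% ± 1.82, and for stems ending in A they were 14.0% ± 1.23 and 14.4% ± 2.22. Tails of AA had a rate of 0.351% ± 0.0417 in the high class against 0.301% ± 0.0484 in the low. These class values were not tested.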
